A study of Mus musculus with 12 samples.

Results

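The response examined here is that of wild-type mouse embryonic fibroblasts to 1 h of interleukin-1 beta (IL-1b), a cytokine that drives inflammation. Its members are 4 of the 12 arrays of the study: 2 of cells grown for 1 h with 1 ng/ml mouse IL-1b, and 2 of cells grown for 4 h with no stimulus. RNA was measured on Affymetrix Mouse Genome 430 2.0 arrays, on which each gene is read by 1 or more probe sets, groups of short probes whose brightness gives a signal. Of 45101 probe sets, 34945 carry 1 gene symbol. Of these, 22676 had a signal of at least 25.5 (the overall median) on 2 or more arrays, and they stand for 12456 genes, each represented by its brightest probe set.

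Among the other arrays, those compared below are of wild-type cells after 4 h of IL-1b and of fibroblasts of IRAK4 kinase dead animals. In these animals the kinase that relays the IL-1 signal lacks its activity. The kinase-dead cells compared were left unstimulated for 4 h or given IL-1b for 1 h. Kinase-dead cells given IL-1b for 4 h are not compared, but their arrays are in the fitted model. The variance behind each standard error and p-value was thus estimated from all groups of the study. All cells were embryonic fibroblasts grown in medium with foetal calf serum. The unstimulated wild-type replicate 1 carries no genotype in its title and was placed by the series design, which counts 6 arrays per genotype. The control was grown for 4 h and the stimulated cells for 1 h, so IL-1b and time in culture cannot be told apart, and no unstimulated cells of 1 h were analysed here. Where levels before IL-1b are given below, they are those of the unstimulated 4 h cells, not of cells sampled ahead of the stimulus. Replicates are described as biological, with no animal or culture named for each, so p-values reflect the spread among the study's samples alone. The small number of arrays limits the precision.

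IL-1b binds a receptor whose adaptor MyD88 gathers IRAK kinases, and the signal divides towards the NF-kB transcription factors and towards MAP kinases that act on AP-1 and serum response factor. The first genes to answer are transcribed from factors already present in the cell, with no need for new protein, and many encode short-lived mRNAs. Fibroblasts are known for answering IL-1 with chemokines that call in leukocytes, and NF-kB also switches on its own inhibitors, which end the signal.

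The 4 arrays had median signals of 23 to 28.3 and the same trimmed mean of 150, so the authors' scaling fixed the mean and not the median. Actin 3' to 5' signal ratios, a sign of RNA quality, were 2.68 and 2.14 in the unstimulated and 2.44 and 2.43 in the stimulated arrays. All 13 fibroblast markers were measured, with a median signal of 2926 to 3088 per array, and 0 of them were called at the threshold given below. The summed signal of 13 macrophage markers was 295 to 331 per array, of which Lyz2 gave 97.4 to 128; Itgam, a defining marker, lay as low as 2.8 in an unstimulated and 0.4 in a stimulated array. Summed endothelial markers (78 to 129 over 8 genes), epithelial markers (111 to 182 over 8 genes) and skeletal muscle markers (106 to 192 over 8 genes) were as low. Only 3 endothelial, 4 epithelial and 4 skeletal muscle genes passed the filter on low signals, and none of these was called. Among 9 neural markers nearly all signal came from Ncam1 (4661 to 5367), and Sox2, a stem cell factor, fell from 52.1 and 45.1 to 20.9 and 15.1 (log2 fold change -1.13, adjusted p = 0.00248). In bulk RNA, fewer cells of a type and less RNA per cell cannot be told apart.

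At 1 h, 930 of 12456 genes (7.47%) passed an adjusted p of 0.05 in limma, the call used throughout. Of these, 363 (2.91%) were higher and 567 (4.55%) lower than in unstimulated cells. Counts for the gene lists below are to be read beside these shares of all genes. The lists were written with earlier results of these data known, so their counts, medians and order are descriptions and no test. The median log2 fold change was 0.62 for the rises and -0.70 for the falls, while the most extreme changes were rises: 87 genes rose at least 2-fold (0.698%), 32 at least 4-fold and 15 at least 8-fold, against 119 (0.955%), 8 and 0 falls. Fold changes are differences of log2(signal + 8), a scale that understates changes of low signals. The genes that rose had a median signal of 422 before and 726 after IL-1b, those that fell 296 and 175, and all genes tested 129 and 120. Among the 3114 brightest genes 193 rose and 177 fell, and among the 3114 dimmest 13 and 37. Of the 119 falls of at least 2-fold, 50 ended at a mean 1 h signal under 25.5, where the scale says little of their true size. Of the 87 rises of at least 2-fold, 17 started from a mean unstimulated signal under 25.5, and the same limit holds for them.

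How many genes moved in each direction depended on the scaling. As deposited, the median log2 fold change over all genes was -0.06; centring each array on its median moved it to 0.10 and gave 750 higher and 239 lower, while quantile normalization left it at -0.03. Every change below is on the deposited scale. The counts also rested on the 1 h arrays: leaving out wild-type 1 h replicate 1 left 483 calls (197 higher, 286 lower) and leaving out replicate 2 left 410 (158 higher, 252 lower). Of the 363 rises 130 kept their call whichever of the 4 arrays was left out, of the 567 falls 146, and of the 206 genes called with at least a 2-fold change 135. Genes named below as having risen or fallen, with no remark, are among those that kept it, a preference set once their values were known. All 930 called genes had arrays that did not overlap between the groups; over all genes 2436 (19.6%) lay wholly higher and 3739 (30%) wholly lower.

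**Figure D1:**
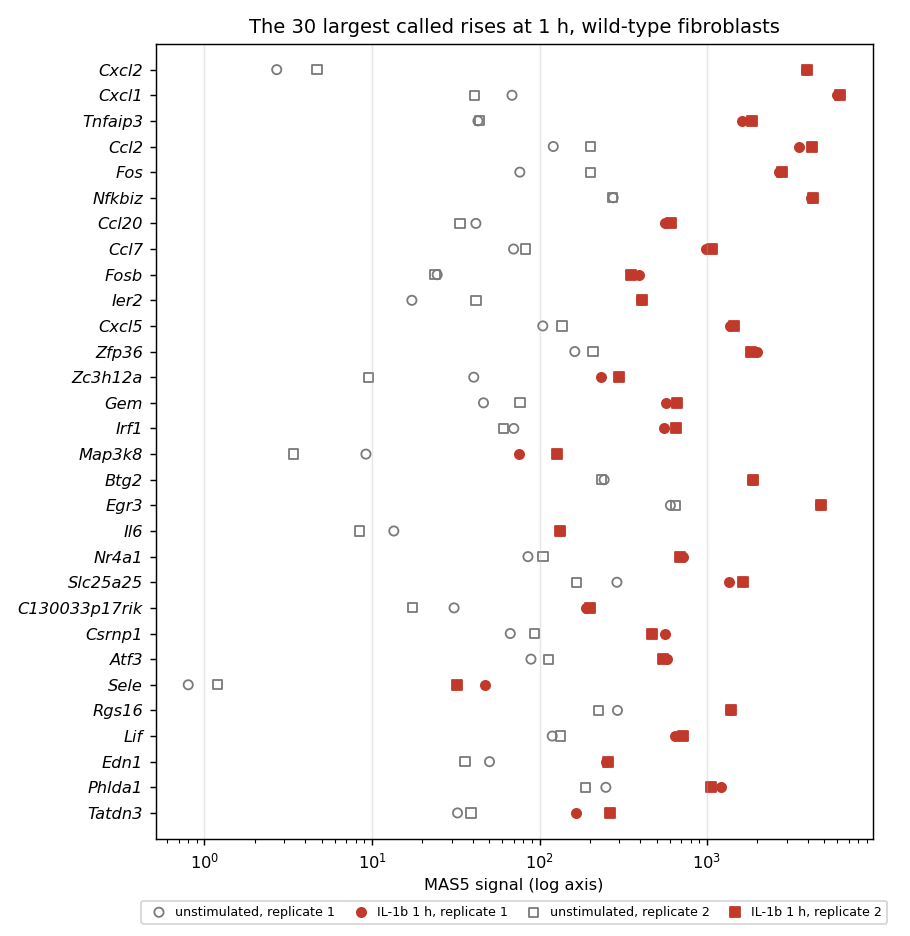
MAS5 signal on a log axis of the 30 genes with the largest called rise at 1 h, 1 row per gene, with open grey symbols for the 2 unstimulated arrays and filled red symbols for the 2 IL-1b arrays (circle replicate 1, square replicate 2). The groups do not overlap for any of these genes, since the choice required it; Cxcl2 moved from 2.7 and 4.7 to 3885 and 3969.

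Chemokines, the secreted proteins that attract leukocytes, gave the largest rises. Cxcl2, a neutrophil attractant, had signals of 2.7 and 4.7 in unstimulated cells and 3885 and 3969 after 1 h. Cxcl1, its neighbour and close relative, went from 68.5 and 41.0 to 5945 and 6228. Ccl2, which attracts monocytes, went from 121 and 203 to 3521 and 4214. Cxcl2 was thus at the floor of the array before IL-1b, while Cxcl1 and Ccl2 started from a measured level, and in all of them the stimulated arrays lay far above the unstimulated ones. The log2 fold changes were 8.40 ± 0.16 (SE, n = 2 arrays per group) for Cxcl2, 6.64 ± 0.25 for Cxcl1 and 4.55 ± 0.17 for Ccl2, with limma adjusted p of 1.23e-15, 1.24e-11 and 1.13e-11. Ccl20, an attractant of dendritic cells and lymphocytes, went from 41.7 and 33.5 to 563 and 606. Ccl7, another monocyte attractant, went from 70.0 and 82.9 to 982 and 1067. Cxcl5, a further neutrophil attractant, went from 105 and 136 to 1367 and 1458. These 3 genes rose by 3.70 ± 0.24, 3.62 ± 0.16 and 3.48 ± 0.25 on the log2 scale.

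Of 22 CXC and CC chemokines tested, 8 rose and 0 fell, and the median log2 fold change was 0.38 against -0.06 over all genes. The other called members were Ccl9 (0.98 ± 0.18; adjusted p = 0.0648 without wild-type 1 h replicate 2, and -0.0586, not called, by its dimmest probe set) and Cxcl10 (1.51 ± 0.39; adjusted p = 0.218 without that array, 0.17 without unstimulated replicate 2 and 0.0624 without 1 h replicate 1). Neighbours in the chemokine gene clusters did not all pass. On chromosome 5, in the order Cxcl5, Ppbp, Pf4, Cxcl3, Cxcl15, Cxcl1 and Cxcl2, the outer members Cxcl5, Cxcl1 and Cxcl2 were called; Ppbp, Cxcl3 and Cxcl15 were not, and Pf4 did not pass the filter on low signals. Cxcl3, a neutrophil attractant between them, had 13.0 and 15.1 before and 29.3 and 24.4 after 1 h (0.66 ± 0.40, adjusted p = 0.367) and 470 and 567 after 4 h. On chromosome 11, Ccl2 and Ccl7 were called, while Ccl11 and Ccl8 were not.

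Promoters of some leading genes are shown because their transcripts moved together. The sites searched for are those of the factors IL-1b is known to act on. Each promoter printed here holds a kB match, so the choice does not show how common matches are. Among other large rises, the searched windows of Zc3h12a, Btg2, Nr4a1, Csrnp1, Atf3, Rgs16, Lif and Edn1 held none. Nor did those of Zfp36, Slc25a25, Sele, Tatdn3, Ch25h, Icam1, Slfn2, Ccnl1, Pim1, Nr4a3 and Dusp1. Several leading rises, Ccl2, Ccl7, Cxcl5, Nfkbiz, Ier2, Egr3, Gem and Map3k8 among them, had no promoter listed. Those of Fos, Fosb, Irf1 and Tlr2 held at least 1. Each stretch ends at the base before an annotated start site and is given 5' to 3' on the gene's strand, from RefSeq on GRCm38.p6. Capitals mark matches to the kB consensus, the site bound by NF-kB, or, in Tnfaip3, also the AP-1 site TGANTCA. Cxcl2 lies on the plus strand (chr5:90903789-90903898), Cxcl1 on the plus strand (chr5:90891135-90891244), Ccl20 on the plus strand (chr1:83116666-83116765), Tnfaip3 on the minus strand (chr10:19015411-19015550), Nfkbia on the minus strand (chr12:55492648-55492747), Ier3 on the plus strand (chr17:35821613-35821712) and Il6 on the plus strand (chr5:30013014-30013113).
Cxcl2: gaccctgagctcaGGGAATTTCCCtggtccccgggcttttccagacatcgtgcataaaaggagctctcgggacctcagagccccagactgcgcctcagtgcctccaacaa
Cxcl1: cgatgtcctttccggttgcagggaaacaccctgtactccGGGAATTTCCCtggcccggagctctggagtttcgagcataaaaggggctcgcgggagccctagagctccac
Ccl20: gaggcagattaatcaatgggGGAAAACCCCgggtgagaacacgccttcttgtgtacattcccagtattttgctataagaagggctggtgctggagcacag
Tnfaip3: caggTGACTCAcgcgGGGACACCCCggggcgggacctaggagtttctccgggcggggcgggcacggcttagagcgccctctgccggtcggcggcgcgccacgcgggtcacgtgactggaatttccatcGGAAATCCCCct
Nfkbia: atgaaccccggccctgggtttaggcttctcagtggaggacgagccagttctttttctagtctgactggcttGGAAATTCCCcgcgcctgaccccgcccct
Ier3: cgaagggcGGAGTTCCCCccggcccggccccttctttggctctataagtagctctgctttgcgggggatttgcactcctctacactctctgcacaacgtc
Il6: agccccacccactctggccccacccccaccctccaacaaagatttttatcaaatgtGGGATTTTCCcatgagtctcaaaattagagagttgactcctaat
Cxcl2 and Cxcl1 hold the same run of letters, GGGAATTTCCC, which matches on both strands in overlapping positions. On the plus strand it lies 97 to 88 bases before the start in Cxcl2 and 71 to 62 in Cxcl1. In Tnfaip3, the kB matches lie 125 to 116 and 12 to 3 bases before the start, and the AP-1 match 136 to 130. The matches in Il6 (44 to 35), Nfkbia (29 to 20), Ccl20 (80 to 71) and Ier3 (92 to 83) are single. A match describes the letters and is not evidence of binding.

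Over the 10024 tested genes with a listed promoter, 5.37% held a kB match in the 250 bases before a start, counting both strands. Among the genes that rose at least 2-fold it was 19.7% (13 of 66), and among all that rose 10.1% (29 of 287). Of the genes that fell, 6.47% held one (29 of 448), and of those that fell at least 2-fold 4.3% (4 of 93). The AP-1 site was in 15.2% of promoters that rose at least 2-fold, 4.3% of those that fell at least 2-fold and 5.53% of all. The cyclic AMP site TGACGTCA, bound by CREB and ATF proteins, was in 13.6%, 4.3% and 2.92%. The CArG box, bound by serum response factor, was in 6.06% of the promoters that rose at least 2-fold, 5.38% of those that fell as much and 1.49% of all. A TATAAA in the gene's direction within 50 bases of the start was in 7.58%, 4.3% and 2.16%. The sequence searched was not equal: genes that rose at least 2-fold had 1.33 listed starts on average, those that fell as much 1.24, all that rose 1.38, all that fell 1.37 and all genes 1.28. These shares are descriptions of the letters in a window and carry no test.

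Secreted cytokines moved in both directions. Il6, the gene of the inflammatory cytokine interleukin-6, went from 13.5 and 8.4 to 132 and 133, a log2 fold change of 2.90 ± 0.27. Lif, which encodes leukaemia inhibitory factor of the same family, went from 119 and 133 to 644 and 721 (2.36 ± 0.14). Edn1, which encodes the vasoconstrictor peptide endothelin-1, went from 50.3 and 35.9 to 248 and 255 (2.36 ± 0.22). These 3 differ in what followed: at 4 h Il6 stood at 1566 and 1658, Lif at 2441 and 2093, and Edn1 was back at 50.4 and 41.4. Il11, also of the interleukin-6 family, fell from 754 and 501 to 207 and 234 (-1.45 ± 0.19), and Pdgfa, a growth factor for mesenchymal cells, fell by 0.62 ± 0.09. Of 29 cytokines and growth factors tested, 8 rose and 3 fell, with a median of 0.13. Of the rises, Il6, Lif, Edn1 and Bmp4 kept their call in every fit with 1 array left out; without wild-type 1 h replicate 2 only these 4 were called. Csf2, the gene of the myeloid growth factor GM-CSF, went from 14.9 and 17.8 to 55.7 and 90.2 (1.70 ± 0.46, adjusted p = 0.0307), and its call was lost on leaving out any 1 of the 4 arrays, with adjusted p of 0.0653 to 0.257. Tnf, an early cytokine in many cells, had 17.1 and 4.1 before and 33.3 and 50.1 after, a difference that did not pass (1.49 ± 0.46, adjusted p = 0.0587).

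Ligands and brakes of the epidermal growth factor receptor, which signals through the same MAP kinases, gave 4 rises and 0 falls among 14 tested, with a median of 0.13. Ereg, the ligand epiregulin, went from 2676 and 2635 to 6294 and 6092 (1.22 ± 0.14). Errfi1, an inhibitor that binds the receptor's kinase, went from 2976 and 3016 to 7317 and 7470 (1.30 ± 0.10), and Spry2, a feedback inhibitor of receptor kinases, from 935 and 1273 to 3035 and 2917 (1.44 ± 0.12; its dimmest probe set had -0.55 and was not called). All 3 were bright in unstimulated cells, and their arrays did not overlap. The ligand gene Hbegf had a value of -0.37 ± 0.14 on the log2 scale and did not pass (adjusted p = 0.119). The remaining rise, Spry4 (0.89 ± 0.21), lost its call without 1 h replicate 1 (0.0527), 1 h replicate 2 (0.116) or unstimulated replicate 1 (0.05002).

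Genes that restrain NF-kB and inflammatory mRNAs were the next large group. Tnfaip3, whose product A20 removes ubiquitin chains from signalling proteins, went from 42.9 and 43.8 to 1621 and 1867 (5.09 ± 0.14, adjusted p = 2.08e-13). Nfkbiz, a nuclear IkB protein needed for some secondary genes, went from 275 and 272 to 4175 and 4284 (3.91 ± 0.09). Nfkbia, the gene of IkB-alpha, which holds NF-kB in the cytoplasm, went from 1768 and 1291 to 6420 and 6025 (2.04 ± 0.11). Nfkbie, another IkB gene, rose by 1.40 ± 0.21. Among RNA-decay factors, Zfp36, whose product tristetraprolin binds AU-rich mRNAs, went from 162 and 208 to 1990 and 1836 (3.32 ± 0.16), and Zc3h12a, the RNase regnase-1, from 40.5 and 9.5 to 234 and 297 (3.22 ± 0.38). Zfp36l1, a relative of Zfp36, was bright from the start and rose by 0.68 ± 0.08, while Zfp36l2, of the same family, did not pass (-0.15 ± 0.08, adjusted p = 0.275). Of 21 inhibitors and feedback genes, 8 rose and 3 fell (median 0.38). Otud7b, a deubiquitinase that restrains the non-canonical NF-kB route, was the one fall that kept its call in every fit with 1 array left out (1630 and 1341 to 637 and 872; -0.98 ± 0.16). The falls of Socs3 and Trib3 were lost without 1 h replicate 1 (adjusted p = 0.171 and 0.233), 1 h replicate 2 (0.0937 and 0.0838) or unstimulated replicate 1 (0.104 and 0.166), Socs3 also without unstimulated replicate 2 (0.0537). The rise of Trib1 was lost without 1 h replicate 1 (0.0547), 1 h replicate 2 (0.18) or unstimulated replicate 1 (0.185).

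The NF-kB subunits and the receptor's own pathway were listed apart. Of 5 NF-kB subunit genes listed, 4 were on the array and 3 were tested, of which 0 were called. The values were 0.34 ± 0.16 for Rela, 0.70 ± 0.23 for Relb (limma adjusted p = 0.0707) and -0.58 for Nfkb2. Nothing can be said here of the listed subunits that were not tested. Of 25 genes of the IL-1 receptor and its proximal signalling, 1 rose (4%, against 2.91% of all genes) and 2 fell (8%, against 4.55%), with a median of 0.05. The rise was Map3k8, the kinase TPL2 that leads from NF-kB proteins to the ERK pathway, with 9.2 and 3.4 before and 75.7 and 127 after (2.92 ± 0.31, adjusted p = 1.15e-05). The falls, Il1rap (-0.72 ± 0.18) and Map2k4 (-0.63 ± 0.12), were lost without 1 h replicate 1 (adjusted p = 0.0608 and 0.0578), Il1rap also without 1 h replicate 2 (0.155) and unstimulated replicate 2 (0.128). The receptor gene Il1r1 stood at 391 and 570 before and 504 and 490 after, so its arrays overlapped.

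**Figure D2:**
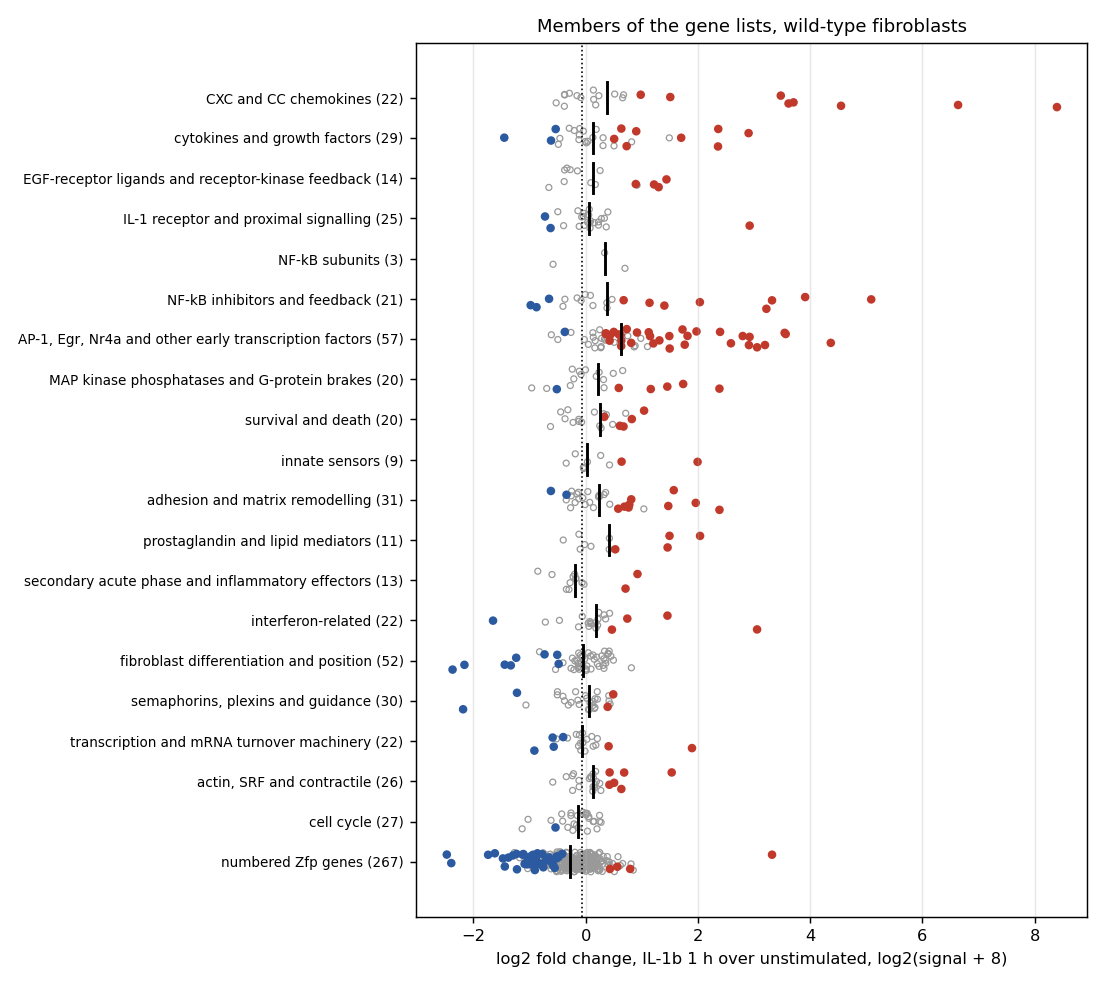
Log2 fold change at 1 h over unstimulated cells for each tested member of 20 gene lists, 1 row per list with the number tested in brackets; red members were called higher, blue lower, open grey not called, the black bar is the list median and the dotted line the median of all genes (-0.06). The early transcription factors have the highest median (0.64) and the numbered Zfp genes the lowest (-0.28).

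Early transcription factors and their companions held the most rises of the lists: of 57 tested, 32 rose and 1 fell, with a median of 0.64. Fos, a subunit of AP-1, went from 76.3 and 202 to 2680 and 2808 (4.37 ± 0.28). Fosb, its relative, went from 24.5 and 23.8 to 394 and 352 (3.56 ± 0.48). Jun, the partner of both, was already at 2714 and 2289 and reached 5497 and 5569 (1.15 ± 0.09). Junb, another AP-1 gene, went from 34.1 and 48.3 to 143 and 164 (1.73 ± 0.26). Fosl1 was not called (0.98 ± 0.30, adjusted p = 0.0575), and Jund was at -0.02 ± 0.10. The zinc finger factor Egr3 went from 604 and 650 to 4743 and 4783 (2.91 ± 0.13). Egr1 and Egr2 started at 2935 and 2410, and 2148 and 1607, and rose by 1.31 ± 0.09 and 1.49 ± 0.16. The orphan nuclear receptor Nr4a1 went from 85.3 and 105 to 719 and 694 (2.80 ± 0.20). Ier2, an immediate early gene, went from 17.3 and 41.8 to 403 and 411 (3.55 ± 0.28). Btg2, an antiproliferative gene that also acts in mRNA deadenylation, went from 243 and 235 to 1848 and 1877 (2.92 ± 0.13).

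Irf1, the interferon regulatory factor that NF-kB is known to induce, went from 70.2 and 61.1 to 556 and 654 (3.06 ± 0.22). Atf3, a stress-induced repressor, rose by 2.40 ± 0.20, Csrnp1 by 2.59 ± 0.20, and Gem, a small GTPase that restrains calcium channels, by 3.20 ± 0.23. Ier3, a survival gene, went from 885 and 848 to 3293 and 3574 (1.98 ± 0.10). The kinase genes Pim1 and Sgk1 rose by 1.82 ± 0.14 and 0.73 ± 0.10. Of the 32 rises, 25 kept their call whichever of the 4 arrays was left out; Nr4a2, for example, rose by 0.81 ± 0.16 but had adjusted p = 0.0619 without 1 h replicate 2. The one fall, that of the ETS factor gene Ets2 (-0.37 ± 0.08), was lost without 1 h replicate 2 (0.129) or unstimulated replicate 1 (0.0533). Myc, a driver of growth that is an early gene after serum, had 68.6 and 110 before and 194 and 140 after (0.86 ± 0.27, adjusted p = 0.066).

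Promoters of 3 of these genes show the other motifs searched for, in capitals. Fos on the plus strand (chr12:85473790-85473889) has a TATAAA 33 to 28 bases before its start. Zfp36 on the minus strand (chr7:28379229-28379328) has a CArG box at 58 to 49. Dusp1 on the minus strand (chr17:26508473-26508632) has a cyclic AMP site at 143 to 136. All are from RefSeq on GRCm38.p6, 5' to 3' on the gene's strand.
Fos: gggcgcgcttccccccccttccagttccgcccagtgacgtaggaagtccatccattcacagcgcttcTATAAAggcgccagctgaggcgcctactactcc
Zfp36: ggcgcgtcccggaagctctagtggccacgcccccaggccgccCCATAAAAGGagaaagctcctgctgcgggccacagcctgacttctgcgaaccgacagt
Dusp1: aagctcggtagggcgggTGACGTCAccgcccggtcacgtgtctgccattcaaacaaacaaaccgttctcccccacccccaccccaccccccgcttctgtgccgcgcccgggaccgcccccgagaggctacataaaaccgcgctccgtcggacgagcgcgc
Fos also holds a kB match starting 214 bases before its start, outside the stretch printed, and the searched windows of Zfp36 and Dusp1 held none.

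Brakes on MAP kinases and G proteins gave 5 rises and 1 fall among 20 tested (median 0.21), and all 5 rises kept their call with any 1 array left out. Dusp1, a phosphatase that inactivates p38 and JNK, went from 782 and 1076 to 3006 and 3153 (1.74 ± 0.14). Dusp5, a nuclear phosphatase of ERK, went from 586 and 541 to 1665 and 1458 (1.46 ± 0.14). Rgs16, which shortens signalling by G-protein-coupled receptors, chemokine receptors among them, went from 292 and 226 to 1362 and 1386 (2.38 ± 0.15). The stress genes Gadd45b and Gadd45a rose by 1.16 ± 0.10 and 0.59 ± 0.10. The fall, Dusp7, was lost without 1 h replicate 1 (adjusted p = 0.13), 1 h replicate 2 (0.1) and unstimulated replicate 2 (0.15).

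Genes for adhesion and matrix remodelling gave 9 rises and 2 falls among 31 (median 0.23). Icam1, an adhesion molecule for leukocyte integrins, went from 38.2 and 26.2 to 125 and 172 (1.96 ± 0.22). Vcam1, another, went from 233 and 446 to 895 and 924 (1.47 ± 0.21). The matrix proteases Adamts1, Adamts5 and Adamts9 rose together, Adamts1 from 266 and 208 to 749 and 681 (1.57 ± 0.15), the others by 0.81 ± 0.09 and 0.69 ± 0.14. Ptx3, a secreted pattern recognition protein, rose by 0.58 ± 0.10. Sele, the endothelial selectin, had only 0.8 and 1.2 before and 47.2 and 32 after (2.38 ± 0.53); its call was lost without 1 h replicate 1 (adjusted p = 0.123) or 1 h replicate 2 (0.0605). The collagenase gene Mmp13 (0.78 ± 0.19) lost its call without 1 h replicate 1 (0.145), 1 h replicate 2 (0.0673) or unstimulated replicate 1 (0.115), and the stromelysin Mmp3 was not called (0.43 ± 0.17). The falls were those of Itga5 and Tnc, of which neither was called without 1 h replicate 1, 1 h replicate 2 or unstimulated replicate 1; other probe sets of these genes are described below.

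Lipid mediator genes gave 4 rises and 0 falls among 11 (median 0.42). Ptger4, a receptor for prostaglandin E2, went from 422 and 383 to 1108 and 1187 (1.49 ± 0.11). Ch25h, which makes 25-hydroxycholesterol, went from 52.7 and 63.1 to 235 and 292 (2.04 ± 0.21). Hpgd, which degrades prostaglandins, went from 91.9 and 104 to 252 and 317 (1.46 ± 0.22). The synthase gene Ptgs2 was bright before IL-1b (5573 and 4495) and reached 7055 and 7388 (0.53 ± 0.12, adjusted p = 0.00986); the call was lost without 1 h replicate 1 (0.0527), 1 h replicate 2 (0.0963) or unstimulated replicate 2 (0.0709). Of 20 genes of survival and death, 5 rose and 0 fell (median 0.26), and the death receptor gene Fas alone kept its call with any 1 array left out (376 and 391 to 600 and 780; 0.82 ± 0.12). Without 1 h replicate 1 or without 1 h replicate 2, 2 of the 5 were called. Among 9 innate sensors 2 rose (median 0.03): Tlr2, from 8.1 and 4.5 to 36.2 and 64.3 (1.99 ± 0.43; adjusted p = 0.139 without 1 h replicate 2), and Tlr3 (adjusted p = 0.161 without 1 h replicate 1 and 0.0854 without unstimulated replicate 1).

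Lists of programmes known as later or secondary, and a list of actin and serum response factor genes, also held rises. Of 13 acute phase and inflammatory effectors, 2 rose (15.4%, against 2.91% of all genes) and 0 fell, and the median was -0.20. The rises were the metallothioneins Mt1 (244 and 224 to 388 and 387; 0.71 ± 0.12) and Mt2 (0.92 ± 0.12), metal-binding proteins that share much of their sequence. Saa3, an acute phase gene, stood at 19.4 and 31.0 before, 14.6 and 24.2 at 1 h and 972 and 718 at 4 h. Of 22 interferon-related genes, 4 rose (18.2%) and 1 fell (median 0.18), among them Irf1 above and Gbp3, a guanylate-binding protein, from 15.9 and 19.3 to 55.1 and 70.0 (1.46 ± 0.24). These are the 2 rises that remained called without 1 h replicate 2, where H2-K1 and Stat3 had adjusted p of 0.122 and 0.292, or without unstimulated replicate 2 (0.102 and 0.111); their dimmest probe sets had -0.17 and -0.20 and were not called. The fall, Irf7, went from 30.8 and 41.1 to 7.1 and 4.8 (-1.65 ± 0.39) and lost its call without 1 h replicate 1 (0.0527), 1 h replicate 2 (0.103) or unstimulated replicate 2 (0.0892). Of 26 actin and serum response factor genes, 6 rose (23.1%, against 2.91% of all genes) and 0 fell (median 0.14). Ankrd1, Rhob, Rnd1 and Rnd3 kept their call with any 1 array left out, while Ccn1 and Filip1l did not. Ccn1 and Rnd3 are also counted in the list of early transcription factors and their companions. Of 27 cell cycle genes 0 rose and 1, Ccna2, fell; its call was lost without 1 h replicate 1 (0.235), 1 h replicate 2 (0.111) or unstimulated replicate 1 (0.178).

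**Figure D3:**
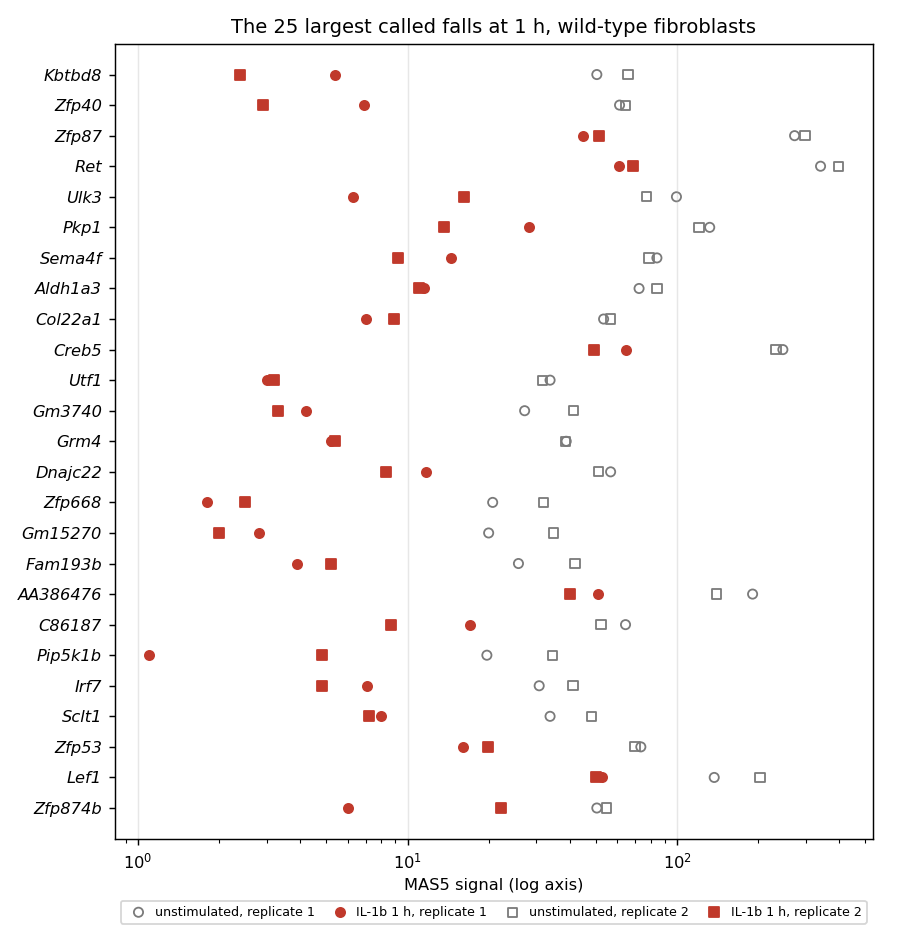
MAS5 signal on a log axis of the 25 genes with the largest called fall at 1 h, 1 row per gene, with open grey symbols for the 2 unstimulated arrays and filled red symbols for the 2 IL-1b arrays (circle replicate 1, square replicate 2). Many end near or under a signal of 10; Ret (341 and 396 to 60.9 and 68.4), Zfp87 and Creb5 are the brighter ones.

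Of the 25 largest falls many ended near the floor of the array. Ret, the receptor tyrosine kinase of GDNF-family ligands, went from 341 and 396 to 60.9 and 68.4 (-2.37 ± 0.14, adjusted p = 8.04e-09). Creb5, a CREB-family transcription factor, went from 247 and 233 to 64.5 and 49.2 (-1.94 ± 0.16), while its dimmest probe set had 1.20 and was not called. Lef1, a transcription factor of Wnt signalling, went from 137 and 203 to 52.7 and 50.1 (-1.56 ± 0.18). Pkp1, a desmosomal plakophilin, went from 132 and 121 to 28.3 and 13.6 (-2.26 ± 0.36). In all 4 the stimulated arrays lay well under the unstimulated ones, and at 4 h the signals were 447 and 438 for Ret, 298 and 267 for Creb5, 89.4 and 112 for Lef1 and 168 and 162 for Pkp1. Sema4f, a semaphorin, went from 84.2 and 78.7 to 14.5 and 9.2 (-2.18 ± 0.34), and the collagen gene Col22a1 from 53.4 and 56.6 to 7.0 and 8.9 (-1.98 ± 0.28). Kbtbd8, an adaptor of a ubiquitin ligase, went from 50.4 and 65.8 to 5.4 and 2.4 (-2.48 ± 0.36). Ulk3, a kinase gene (-2.36 ± 0.49), lost its call without 1 h replicate 1 (adjusted p = 0.079).

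Genes of fibroblast differentiation and position gave 0 rises and 8 falls among 52 (median -0.05), and 4 of the falls kept their call with any 1 array left out, the same 4 that were called without 1 h replicate 2. Besides Ret these were enzymes at either end of retinoic acid metabolism and a Hox gene. Aldh1a3, which makes retinoic acid, went from 72.3 and 84.2 to 11.5 and 11 (-2.16 ± 0.22). Cyp26b1, which degrades it, went from 61.3 and 58.6 to 19.3 and 18.6 (-1.33 ± 0.23). Hoxa9, a transcription factor of body axis position, went from 376 and 330 to 164 and 94.4 (-1.44 ± 0.19). Hoxb3 fell by 0.51 ± 0.12 and lost its call without 1 h replicate 1 (0.0829), 1 h replicate 2 (0.0897) or unstimulated replicate 1 (0.0761). Among 30 semaphorin, plexin and guidance genes 2 rose and 2 fell (median 0.06). This is 6.7% each way, against 2.91% and 4.55% of all genes. Of these 4, Sema4f alone kept its call with any 1 array left out. Among 22 genes of the transcription and mRNA turnover machinery, 2 rose (9.1%) and 4 fell (18.2%), with a median of -0.07. The cyclin gene Ccnl1 rose from 501 and 500 to 1777 and 1995 (1.89 ± 0.11). None of the 4 falls kept its call whichever array was left out.

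The numbered Zfp genes, named for zinc fingers and mostly encoding DNA-binding proteins of which many are KRAB repressors, were described as a group. Of 305 on the array 267 were tested; 41 of these fell (15.4%, against 4.55% of all genes), 4 rose, and 191 had a negative log2 fold change. Their median was -0.28 against -0.06. The largest falls were Zfp40 (61.2 and 64.5 to 6.9 and 2.9; -2.47 ± 0.33) and Zfp87 (273 and 298 to 44.6 and 51.2; -2.39 ± 0.17), followed by Zfp668, Zfp53 and Zfp768. Zfp53 went from 73.4 and 69.8 to 16.1 and 19.9 (-1.62 ± 0.20). Zfp668 lost its call without 1 h replicate 1 (0.0565), 1 h replicate 2 (0.0505) or unstimulated replicate 2 (0.0746), and Zfp768 without 1 h replicate 1 (0.0501). Leaving out 1 array gave 21 (without 1 h replicate 1), 24 (without 1 h replicate 2), 30 or 32 falls, and 15 of the 41 kept their call in all 4 such fits. With arrays centred on their medians 24 fell and 9 rose. One of the 4 that rose is Zfp36, which is no repressor of this kind but the RNA-decay factor described above.

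The same 1 h stimulus in kinase-dead fibroblasts, on other arrays, called 407 genes (3.27%), 193 higher (1.55%) and 214 lower (1.72%). Of the 363 genes that rose in wild-type cells 106 also rose there, which is 29.2% of the wild-type and 54.92% of the kinase-dead list. Of the 567 falls 122 were shared, 21.52% and 57.01% of the lists, and 0 genes were called in opposite directions. The median kinase-dead log2 fold change was 0.33 for the wild-type rises and -0.33 for the wild-type falls, against -0.01 over all genes. The difference between the genotypes' responses was itself called for 61 genes (0.49%), 41 of them among the wild-type rises and 14 among the falls. Leaving out 1 array gave 35 (without kinase-dead 1 h replicate 1), 38 (without wild-type 1 h replicate 2), 40 (without kinase-dead 1 h replicate 2) and up to 103 (without wild-type unstimulated replicate 1). Of the 30 largest rises, Cxcl2 had 1.1 and 0.7 before and 14.4 and 11.9 after IL-1b in kinase-dead cells, and Ccl20 had 14.4 and 4.8, then 2.7 and 3.5. Irf1 had 73.6 and 99.3 before and 45.0 and 72.6 after. The response differences, wild type minus kinase dead, were 7.15 ± 0.23 for Cxcl2, 4.31 ± 0.33 for Ccl20 and 3.57 ± 0.31 for Irf1, with limma adjusted p of 4.91e-12, 9.2e-07 and 4.81e-06.

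**Figure D4:**
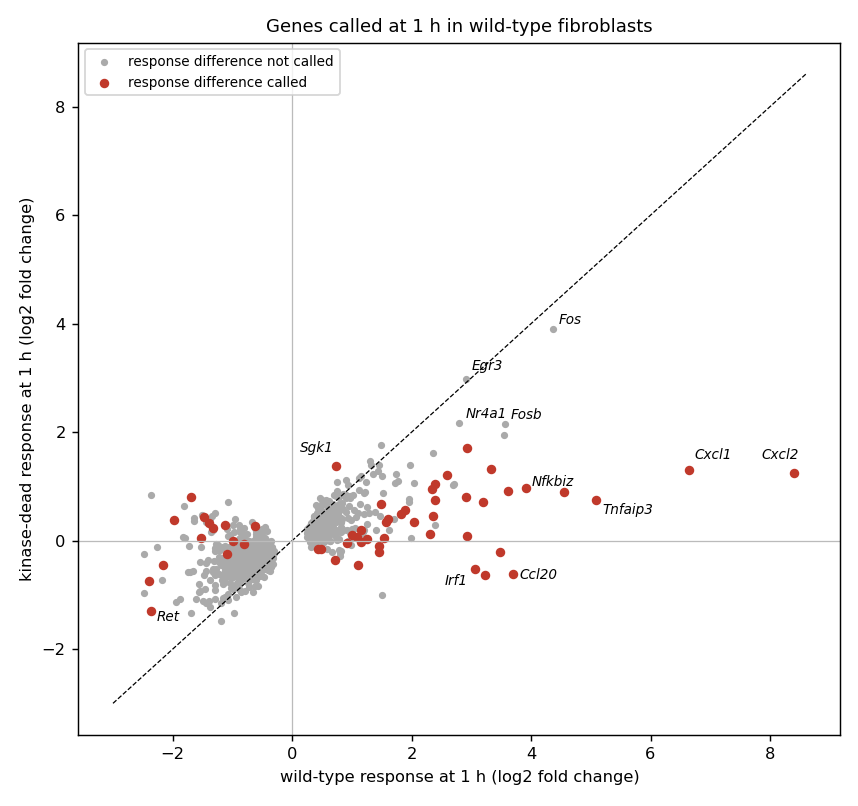
Log2 fold change at 1 h of the 930 genes called in wild-type fibroblasts (x axis) against that of the same genes in kinase-dead fibroblasts (y axis); red points are genes whose response difference was called, and the dashed line marks equal responses. Fos and Egr3 lie by the line, whereas Cxcl2, Cxcl1, Tnfaip3 and Irf1 lie far under it.

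Other leading rises differed by little or by nothing that passed the test. Fos went from 109 and 98.3 to 1611 and 1697 in kinase-dead cells, and its response difference was 0.47 ± 0.40 (adjusted p = 0.811). Egr3 went from 261 and 311 to 2092 and 2564 (-0.08 ± 0.19, adjusted p = 0.953). Jun (-0.04 ± 0.13), Egr1 (-0.08 ± 0.13), Dusp5 (0.06 ± 0.19) and Errfi1 (-0.16 ± 0.14) were likewise not called. A p that misses the threshold does not show that the genotypes answered alike. The kinase-dead arrays lay under the wild-type ones before and after the stimulus for Egr3, and likewise for Errfi1 (1152 and 1392, then 3386 and 3612). Among the falls, Ret went from 336 and 436 to 148 and 156 in kinase-dead cells and its response difference was -1.08 ± 0.20 (adjusted p = 0.0154), a call lost without wild-type unstimulated replicate 2 (0.0521), wild-type 1 h replicate 1 (0.0788), kinase-dead unstimulated replicate 1 (0.0992), kinase-dead 1 h replicate 1 (0.0607) or 1 h replicate 2 (0.0925). Zfp87 went from 228 and 247 to 122 and 158 there (-1.66 ± 0.24, adjusted p = 0.00167), and this call was kept in every such fit.

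By 4 h of IL-1b the early genes had parted. This comparison with wild-type cells at 4 h called 2363 genes (19%), 1045 higher (8.39%) and 1318 lower (10.6%) than at 1 h, and it shares the 1 h arrays with the comparison above, so values are set side by side. Without wild-type 1 h replicate 1 it called 1461 genes, without 1 h replicate 2 it called 1375, and without wild-type 4 h replicate 2 it called 1571. Fos fell back to 146 and 158, Nr4a1 to 70.3 and 76.6, Zfp36 to 226 and 230 and Irf1 to 103 and 134, with log2 differences of -4.11 ± 0.28, -3.13 ± 0.20, -3.02 ± 0.16 and -2.29 ± 0.22 between 4 h and 1 h. Tnfaip3 stood at 562 and 564, between its unstimulated and 1 h levels. Cxcl1 (6314 and 5984) and Cxcl2 (5061 and 4308) had no called difference from 1 h. Icam1 (1705 and 1337), Zc3h12a (1161 and 1305) and Nfkbie (866 and 734) were higher still, by 3.29 ± 0.22, 2.19 ± 0.38 and 2.21 ± 0.21. Hpgd, which had risen at 1 h, stood at 25.1 and 22.0, under its unstimulated level, and Bmp4, a bone morphogenetic protein, went from 207 and 209 through 313 and 344 to 71.2 and 71.8.

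A gene's other probe sets did not always follow its brightest one. Tested singly, 586 of 22676 probe sets rose (2.58%) and 793 fell (3.5%). Of 510 genes whose brightest probe set was called and that had another tested probe set, another was called the same way in 141, the opposite way in 12 and none in 358. Of 5824 genes with more than 1 tested probe set, 283 had a brightest probe set that was not called and another that was. This count is to be read beside the shares of all probe sets called. The other was higher in 119 of them and lower in 165. It rose at least 2-fold in 48 genes and fell at least 2-fold in 65. The 51 probe sets behind those 48 genes were dim, with a median unstimulated signal of 38 against 1037 for the brightest probe set of the same gene. The genes described next were chosen after their values were seen, for being integrins, matrix or contractile genes of fibroblasts and a few others with large differences. All were picked for a probe set that rose, and genes whose other probe set only fell are not described singly. The positions of the probes in the transcripts were not analysed here.

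For Itgav, the integrin alpha-v chain, the brightest probe set had a log2 fold change of 0.06, while 1432678_at went from 23.8 and 36.2 to 120 and 175, then 43.6 and 55.2 at 4 h, and 1432296_a_at from 4.4 and 6.3 to 79.0 and 88.5. For Fn1, fibronectin, the brightest probe set had 0.10, while 1437218_at went from 584 and 656 to 1325 and 1548, then 607 and 698 at 4 h. For Tpm1, a tropomyosin, the values were 0.18 for the brightest and 1.43 for 1456623_at (286 and 263 to 656 and 855). For Mapk6, an atypical MAP kinase, they were -0.01 and 1.98 (1429963_at, 108 and 88.8 to 400 and 418), and for Sqstm1, an autophagy receptor, 0.31 and 2.07 (1444021_at, 159 and 134 to 612 and 664). All these second probe sets kept their call with any 1 array left out.

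In 12 genes, Itga5, Tnc and Enah among them, probe sets were called in opposite directions. In 1 of the 12, Enah, both directions kept their call with any 1 array left out; in the other 11 a direction was lost in at least 1 such fit. For Itga5, the fibronectin-binding integrin chain, 1458996_at rose from 151 and 128 to 534 and 703 (2.08) while the brightest, 1423267_s_at, fell by 0.62. For Tnc, the matrix protein tenascin C, 1456344_at rose from 259 and 232 to 669 and 952 (1.67) while the brightest, 1416342_at, fell by 0.34. The falls of the brightest probe sets of Itga5 and Tnc were lost without 1 h replicate 1, 1 h replicate 2 or unstimulated replicate 1 (adjusted p of 0.0735 to 0.171 and 0.128 to 0.17). For Enah, an actin regulator, 1442223_at rose by 1.15 and 1424800_at fell by 0.55, and both calls were kept with any 1 array left out. Acta2, smooth muscle actin, had 0.13 for its brightest probe set and 1.70 for 1456658_at, a call lost without 1 h replicate 2 (adjusted p = 0.0561).

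**Figure D5:**
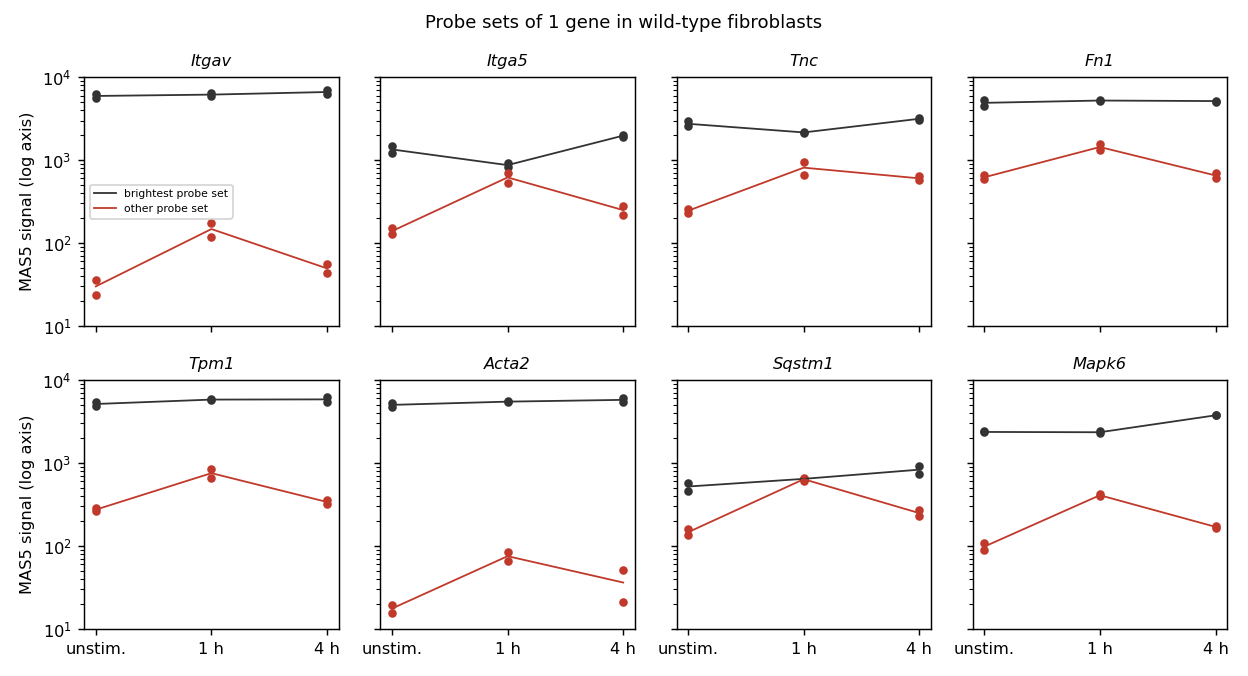
MAS5 signal on a log axis of the brightest probe set (black) and of another probe set (red) of 8 genes in wild-type cells, unstimulated, after 1 h and after 4 h of IL-1b; points are arrays (n = 2 per condition) and lines join the means. Each red probe set is the brightest of the gene's other probe sets called higher at 1 h, so its rise was fixed by the choice. In all 8 genes its mean was lower again at 4 h, which a choice made on the same 1 h arrays favours. For Tnc the difference between 4 h and 1 h was not called (-0.40, limma adjusted p = 0.108). From unstimulated to 1 h the black probe sets moved little or, for Itga5 and Tnc, fell.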

How the data were processed

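RNA of mouse embryonic fibroblasts was purified with RNeasy columns and amplified with the NuGEN Ovation method, per the labels' protocols. The authors deposited linear signal intensities made with MAS5, per the submitters' processing notes; the version is not given in the sources used here. Genes were named from platform annotation listing 1 symbol (932 probe sets list several, 9160 none). Signals were analysed as log2(signal + 8), 8 being the power of 2 nearest to their 25th percentile (7.9). A model with 6 group means over all 12 arrays was fitted by limma (version 3.58.1, R 4.3.3; empirical Bayes with a mean-variance trend, Benjamini-Hochberg adjustment over all genes), with no further normalization, and tested on simulated data. The text names the 30 called genes that rose most and the 25 that fell most with no overlap between groups, list members, and numbered Zfp genes; others are said to be chosen after their values were seen. Members and lists were chosen with earlier results of these data known. Array replicate numbers did not pair the samples (correlations of deviations between groups of -0.03 to 0.07). Some genes, Irak4 among them, were not analysed here, and a transcript would not check a kinase-dead label.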

Additional observations from a re-analysis of the deposited data

Results flagged for a closer look

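The response to 1 h of IL-1b differed between wild-type and kinase-dead fibroblasts, by limma's test of the difference, for 41 of the named genes. The values below are the wild-type minus the kinase-dead log2 response. For 23 genes that rose more in wild-type cells the call was kept whichever of the 8 arrays was left out. The chemokine genes stood at 7.15 (Cxcl2), 5.34 (Cxcl1), 4.31 (Ccl20), 3.70 (Cxcl5), 3.66 (Ccl2) and 2.70 (Ccl7). Feedback and decay genes stood at 4.35 (Tnfaip3), 3.86 (Zc3h12a), 2.95 (Nfkbiz), 2.0 (Zfp36) and 1.69 (Nfkbia). Irf1 was at 3.57, Map3k8 at 2.83, Gem at 2.48, Tatdn3 at 2.20, Lif at 1.91, Rgs16 at 1.64, Phlda1 at 1.39, Pim1 at 1.33, Ccnl1 at 1.32, Btg2 at 1.22, Gadd45b at 1.18 and Mt1 at 1.08.

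The call was lost in at least 1 fit with 1 array left out for 17 genes: Il6 (2.10), Gbp3 (1.68), Hpgd (1.57), Rnd1 (1.49), Csrnp1 (1.38), Atf3 (1.34), Adamts1 (1.24), Mt2 (0.98), Ptger4 (0.81), Btg1 (0.59), Sgk1 (-0.65), Ret (-1.08), Cyp26b1 (-1.56), Aldh1a3 (-1.72), Zfp768 (-1.90), Col22a1 (-2.36) and C86187 (-2.50). Each of the 8 arrays ended some of the 41 calls when left out: wild-type unstimulated replicate 1 or 2 ended 7 each, wild-type 1 h replicate 1 ended 13 and replicate 2 ended 11, kinase-dead unstimulated replicates 1 and 2 ended 9 and 8, and kinase-dead 1 h replicates 1 and 2 ended 15 and 12. The highest adjusted p that a gene reached in these limma fits ran from 0.0522 (Rnd1, without wild-type 1 h replicate 2) to 0.263 (Atf3, without kinase-dead 1 h replicate 1). Zfp87 (-1.66) kept its call. Sgk1, a kinase gene, is the one among these that rose in both genotypes and more in kinase-dead cells.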

How the results depend on the processing

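The 930 genes called at 1 h became 465 with no variance trend, 529 with each gene's dimmest probe set and 409 with only the compared arrays fitted; leaving out 1 array gave 410 to 1008. The 363 rises became 750 with arrays centred on their medians, 171 with no trend, 586 over every probe set, 224 with the dimmest and 175 with only the compared arrays (158 to 467 with 1 array left out). The 567 falls became 239, 294, 793, 305 and 234 (252 to 541). The 206 changes of at least 2-fold became 108 with a pseudocount of 32, 134 with a stricter filter and 389 over every probe set (175 to 235). The 61 response differences became 19 with no trend (35 to 103 with 1 array left out), and the 2363 differences between 4 h and 1 h 1289 with the dimmest probe set (1375 to 1659). A pseudocount of 1 (900), no filter (726) and quantile normalization (872) left the count of calls within 1.5 times. With the replicate number as a block, 922 genes were called (363 higher, 559 lower); the numbers do not pair the samples.

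Of 515 named genes, 14 changed sign with a call on at least 1 side, all with the dimmest probe set: Creb5 (1.20), Tnc (1.67), Itga5 (1.64), Tob2 (0.047), Ccl9 (-0.0586), Spry2 (-0.55), Nr4a3 (-0.0505), Ier5 (-0.17), Sod2 (-0.25), Stat3 (-0.20), H2-K1 (-0.17), Meis2 (-0.63), Efnb2 (-0.31) and Elavl1 (-0.87). The cause was not tested. Signals near the array's floor limit what can be said of the falls, and of the size of rises that started there.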

Other observations

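Genes outside the lists, chosen after their values were seen, also moved at 1 h. Of the 4 tested genes named Txnip or Arrdc, which encode alpha-arrestins, 3 fell: Txnip, an inhibitor of glucose uptake and thioredoxin, went from 2443 and 2616 to 1067 and 988 (-1.29 ± 0.09), Arrdc4 from 354 and 434 to 192 and 183 (-1.03 ± 0.16) and Arrdc3 from 314 and 372 to 175 and 196 (-0.86 ± 0.14). Arrdc1 had 68.6 and 75.9, then 36.6 and 37.6, and did not pass (-0.83 ± 0.26, limma adjusted p = 0.0644). Each of the 3 kept its call with any 1 array left out. In kinase-dead cells Txnip went from 2456 and 2033 to 1065 and 1052, and its response difference was -0.22 ± 0.13 (limma adjusted p = 0.712).

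Gjb2, the gap junction protein connexin 26, fell from 1955 and 2019 to 699 and 737 (-1.46 ± 0.09) and stood at 2853 and 2867 after 4 h. Tnfrsf11b, the secreted decoy receptor osteoprotegerin, fell from 2083 and 2625 to 1167 and 1159 (-1.0 ± 0.13). Neat1, a nuclear long non-coding RNA, fell from 1002 and 714 to 276 and 401 (-1.32 ± 0.17). Among further rises, F3, the coagulation starter tissue factor, went from 717 and 590 to 1750 and 2030 (1.52 ± 0.16), and Slc25a25, a mitochondrial carrier of ATP, from 290 and 167 to 1343 and 1639 (2.71 ± 0.30). All of these kept their call with any 1 array left out.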
